A study of Mus musculus with 2 samples.

Results

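The S100 proteins are small calcium-binding proteins of the EF-hand type. The 9 genes described here are S100a1, S100a4, S100a6, S100a10, S100a11, S100a13, S100a14, S100a16 and S100g, selected by gene symbol from the 18944 genes listed for both libraries. RNA sequencing was done on cultures labelled as mouse intestinal stem cells, 1 library from Stat6 knockout (KO) cells and 1 from wild-type (WT) cells. Both carried Lgr5GFP-CreERT2, an Lgr5-driven reporter and inducible recombinase, came from animals aged 2 months, and grew in medium with EGF, R-spondin 1 and the kinase inhibitor Y27632. The KO cells received a lentivirus with CRISPR/Cas and guides against Stat6 and were screened for the deficiency. The same protocol text stands under both samples, so it is not known here whether the WT cells received a control virus, or whether the KO culture was 1 clone. With 1 library per genotype, no difference below has a replicate check and no test of genotype was possible.

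Most S100 proteins pair up, bind calcium through their EF-hands, and then grip target proteins such as annexins, myosin heavy chains or cell-surface receptors. Most of their genes lie side by side in the epidermal differentiation cluster, between genes for proteins of the skin barrier. S100g stands apart from them. Its gene lies on the X chromosome and encodes calbindin-D9k, a single-chain protein that carries calcium through the cytosol of absorptive enterocytes and is switched on by vitamin D in the intestine.

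Levels are in FPKM, that is, sequenced fragments divided by transcript length and by the library's total. The log2 ratio is log2((KO FPKM + 1)/(WT FPKM + 1)), so a negative value means a lower level in KO. A gene counts as measured when either library reaches 1 FPKM, and as higher or lower at a log2 ratio of at least 1 in size, a 2-fold difference. Over 12079 measured genes 2.44% were 2-fold higher in KO and 2.18% were 2-fold lower, and the median log2 ratio was -0.18, with 69.6% of genes below 0. As deposited, 295 genes were 2-fold higher and 263 lower, so 52.9% of the genes past 2-fold were higher. After scaling by a trimmed mean of log ratios (TMM), which moved the median of all genes to 0.02, these numbers were 440 and 171 (72.0% higher), and with a pseudocount of 0.1 they were 374 and 604 (38.2% higher). Lgr5, the receptor that marks these stem cells, was at 1.88 FPKM in KO and 1.79 FPKM in WT, and Stat6 at 44.2 FPKM in KO and 41.3 FPKM in WT. A small CRISPR lesion need not lower a transcript, so the Stat6 level checks nothing about the genotype label.

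The 8 members other than S100g all read lower in KO, and S100g read higher. Of the 9 members, 1 was 2-fold higher (S100g) and 1 was 2-fold lower (S100a11), beside the 2.44% and 2.18% of all measured genes. All 9 counted as measured, S100a4 through its WT level alone. At 1.5-fold, 3 members were lower (S100a11, S100a13 and S100a10), where 11.4% of all measured genes were, and 1 was higher, where 5.70% were. The median log2 ratio over the members was -0.52, beside -0.18 for all measured genes. Set against that general shift, the log2 ratios of the 8 members other than S100g differed from the median of all genes by -0.20 (S100a1) to -0.87 (S100a11). The summed level was 1921 FPKM in KO and 3366 FPKM in WT, which is 0.387% of all FPKM in KO and 0.668% in WT. S100a6, S100a10 and S100a11 together made up 90.9% of that sum in KO and 93.6% in WT, so the sum mostly follows them.

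**Figure D1:**
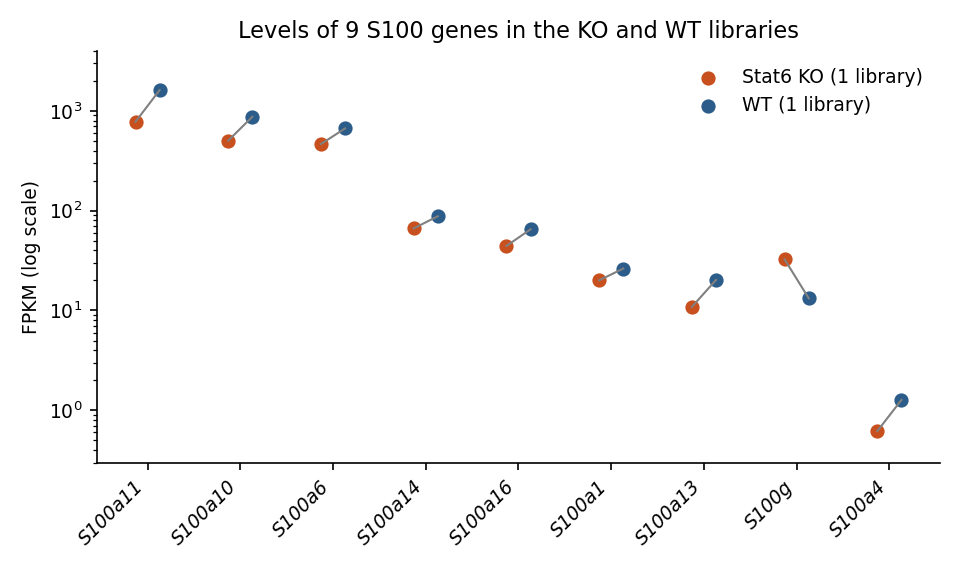
FPKM on a log axis of the 9 S100 genes, ordered by WT level, with 1 point for the Stat6 KO library and 1 for the WT library joined by a line. The KO point lies below the WT point for every gene except S100g, which stood at 32.5 FPKM in KO and 13.3 FPKM in WT.

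S100a11 (Entrez gene 20195), a protein best known for binding annexin A1, was the most abundant member in both libraries. It stood at 777 FPKM in KO and 1613 FPKM in WT, with a log2 ratio of -1.05. It ranked 87 among all listed genes in KO and 22 in WT. Only 1.85% of measured genes had a lower log2 ratio, and 1.41% of the 851 measured genes with a mean level of at least 100 FPKM did. Among those abundant genes 2.00% were 2-fold lower in KO. The difference sat close to the 2-fold line and was no longer past it in 3 other scalings, at -0.82 with the TMM factor, -0.87 with the median of all genes set to 0, and -0.99 with library totals that leave out enterocyte markers. Within the members S100a11 made up 40.5% of the summed FPKM in KO and 47.9% in WT. Its promoter is shown because it held matches to the AP-1 motif TGANTCA (capitals), beginning at positions -136 and -38 relative to the annotated start (chr3:93520246-93520545, plus strand, GRCm38.p6, RefSeq).
S100a11: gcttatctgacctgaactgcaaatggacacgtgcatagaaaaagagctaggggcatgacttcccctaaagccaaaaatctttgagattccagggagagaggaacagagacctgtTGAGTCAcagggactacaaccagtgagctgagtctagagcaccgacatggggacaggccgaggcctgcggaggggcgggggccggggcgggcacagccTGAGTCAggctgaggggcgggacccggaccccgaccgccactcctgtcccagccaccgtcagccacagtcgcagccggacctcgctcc

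S100a10 (Entrez gene 20194), also called p11, no longer binds calcium and is held in a tetramer with annexin A2 at the inner face of the plasma membrane. It stood at 503 FPKM in KO and 872 FPKM in WT, a log2 ratio of -0.79 (-0.56 after TMM scaling). Its rank was 155 in KO and 86 in WT. The gene of its partner, Anxa2, differed in the same direction, at 1266 FPKM in KO and 2034 FPKM in WT (log2 ratio -0.68). The level of S100a10 was 0.398 of that of Anxa2 in KO and 0.429 in WT, a smaller difference in proportion than for S100a11 and Anxa1, where S100a11 stood at 51.4 times Anxa1 in KO and 36.5 times in WT.

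S100a6 (Entrez gene 20200), or calcyclin, binds the calcyclin-binding protein Cacybp and several annexins. It stood at 465 FPKM in KO and 667 FPKM in WT, a log2 ratio of -0.52 (-0.29 after TMM scaling). Of the 3 abundant members it differed least between the libraries. S100a11 stood at 1.67 times S100a6 in KO and 2.42 times in WT. S100a10 stood at 1.08 times S100a6 in KO and 1.31 times in WT. The abundant members thus lay closer together in the KO library, and without replicates the order of S100a10 and S100a6 in KO cannot be separated from error. In bulk RNA, fewer cells of a type and less RNA per cell cannot be told apart.

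**Figure D2:**
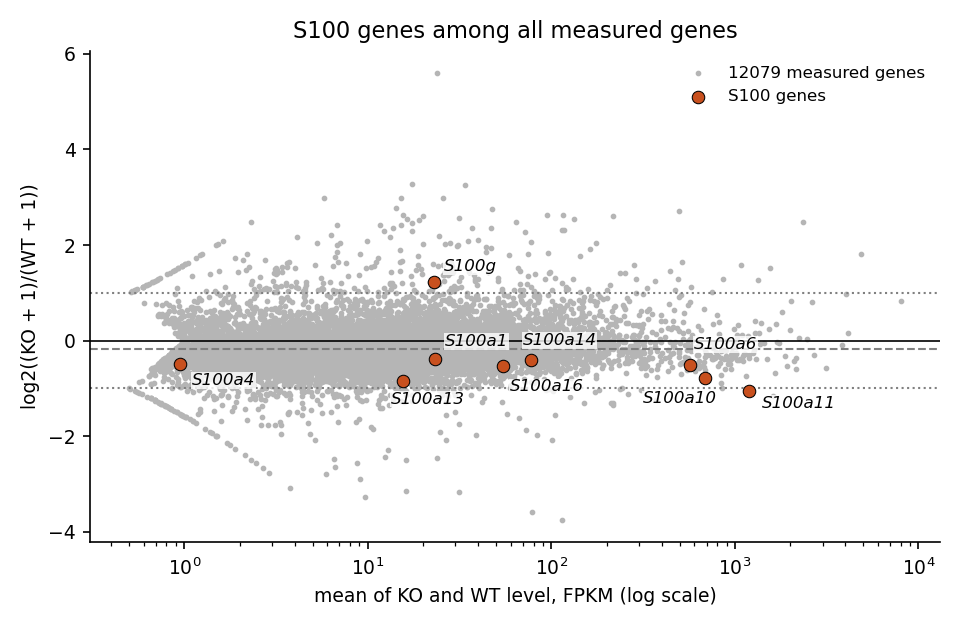
Log2 ratio against the mean FPKM of KO and WT (log axis) for 12079 measured genes (grey) and the 9 S100 genes (orange); the dashed line is the median of all genes, -0.18, and dotted lines mark 2-fold. S100a11 lies at the lower 2-fold line among the most abundant genes, S100g lies above the upper one, and the other members lie between the lines.

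S100a14 and S100a16 were the members of middle level. S100a14 (Entrez gene 66166) stood at 66.5 FPKM in KO and 87.9 FPKM in WT, a log2 ratio of -0.40. S100a16 (Entrez gene 67860) stood at 44.4 FPKM in KO and 65.0 FPKM in WT, a log2 ratio of -0.54. Both lay below the median of all genes, yet 24.8% and 14.3% of measured genes had a lower log2 ratio than S100a14 and S100a16, so neither lay near the extremes of all genes. With the TMM factor S100a14 was at -0.17 and S100a16 at -0.31.

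S100a1 and S100a13 are neighbours that start close together on opposite strands. S100a1 (Entrez gene 20193), best known in heart muscle, where it acts on the ryanodine receptor, stood at 20.1 FPKM in KO and 26.3 FPKM in WT, a log2 ratio of -0.38, or -0.15 after TMM scaling. S100a13 (Entrez gene 20196), which takes part in the release of the growth factor FGF1, stood at 10.9 FPKM in KO and 20.2 FPKM in WT, a log2 ratio of -0.84. After S100a11, S100a13 had the lowest log2 ratio of the members, and 3.94% of measured genes were lower. RefSeq spans of both genes overlap by 98 bases, whereas their GENCODE vM21 spans do not overlap, and nothing here states that counting used strand, so a few of their reads may be exchanged. Their 300-base promoter windows share 204 bases, the capitals in the S100a13 window (chr3:90514185-90514484, plus strand, GRCm38.p6, RefSeq). This window is shown because both neighbours read lower in KO, as all 8 members other than S100g did, and their windows overlap.
S100a13: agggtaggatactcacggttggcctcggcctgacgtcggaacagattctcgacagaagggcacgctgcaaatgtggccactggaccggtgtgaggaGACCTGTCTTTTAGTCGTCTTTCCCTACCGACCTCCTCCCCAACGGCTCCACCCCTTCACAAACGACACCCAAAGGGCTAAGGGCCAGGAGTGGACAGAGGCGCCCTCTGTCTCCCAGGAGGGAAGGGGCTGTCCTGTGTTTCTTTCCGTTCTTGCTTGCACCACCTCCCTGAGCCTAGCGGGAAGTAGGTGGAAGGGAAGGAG

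S100a4 (Entrez gene 20198) binds the heavy chain of non-muscle myosin IIA and is widely used as a fibroblast marker. It was the least abundant member, at 0.62 FPKM in KO and 1.27 FPKM in WT, a log2 ratio of -0.49. At depths inferred from the step size of low FPKM values, these levels stand for about 5.79 reads in KO and 11.7 reads in WT. The 95% exact binomial interval of its log2 ratio without a pseudocount ran from -2.71 to 0.51, for counting error at the estimated depth alone, with 0 inside it. That depth is the smallest that fits the steps, and the labels give an average of 59000000 reads per sample. Were all of those behind the FPKM values, the levels would stand for 17 reads in KO and 35 reads in WT and the interval would run from -1.97 to -0.17, so whether counting error alone could give the S100a4 difference depends on the depth assumed. An annotated transcript of the neighbouring model Gm42674 shares 302 exon bases with S100a4 on the same strand, in GENCODE vM21, which makes the value less certain. Of the fibroblast markers 6 of 10 were below 1 FPKM in both libraries, Pdgfra among them at 0.05 FPKM in KO and in WT, and 2 of the 4 measured ones passed the minimum through WT alone. Over the list the sum was 30.6 FPKM in KO and 69.1 FPKM in WT, mostly Vim at 25.6 FPKM in KO and 59.8 FPKM in WT (log2 ratio -1.19, or -0.97 with the TMM factor, where 0 fibroblast markers were past 2-fold), followed by Sparc at 1.74 FPKM in KO and 3.36 FPKM in WT. The part of such cells in the lower S100 levels was not tested.

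S100g (Entrez gene 12309) was the member higher in KO. It stood at 32.5 FPKM in KO and 13.3 FPKM in WT, a log2 ratio of 1.23 and 1.41 above the median of all genes. It ranked 2596 among all listed genes in KO and 5611 in WT. Only 1.47% of measured genes had a higher log2 ratio. The levels stand for about 291 reads in KO and 118 reads in WT, and the 95% exact binomial interval of its log2 ratio without a pseudocount, for counting error alone, was 0.97 to 1.61 around 1.29. S100g lies within the gene Ctps2 on the opposite strand and shares 0 exon bases with it. Ctps2 was at 2.26 FPKM in KO and 2.63 FPKM in WT, far below S100g. The S100g promoter window is shown for contrast with S100a11: its GC content was 41.0%, against 61.7% in the S100a11 window, and TATAAA (capitals) began at the annotated start (chrX:162964550-162964849, minus strand, GRCm38.p6, RefSeq).
S100g: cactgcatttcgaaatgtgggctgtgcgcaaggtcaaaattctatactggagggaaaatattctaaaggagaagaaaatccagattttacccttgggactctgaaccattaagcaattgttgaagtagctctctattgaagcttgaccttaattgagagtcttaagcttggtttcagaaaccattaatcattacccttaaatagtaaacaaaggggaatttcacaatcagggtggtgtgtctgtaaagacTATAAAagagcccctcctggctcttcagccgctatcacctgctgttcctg

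Beside S100g, the markers of absorptive enterocytes, the cells that express it in the intestine, were higher in the same library. Of 14 listed markers 14 were measured, and 12 were at least 2-fold higher in KO, where 2.44% of all measured genes were. The 12 had log2 ratios of 1.29 to 2.98, and among them were Anpep, Alpi, Rbp2, Treh, Apoa4, Fabp1, Slc5a1, Sis, Fabp2, Apoa1 and Lct. The most abundant were the fatty acid-binding proteins Fabp1, at 7580 FPKM in KO and 2173 FPKM in WT, and Fabp2, at 3997 FPKM in KO and 714 FPKM in WT. The median of the list was 1.72, above the log2 ratio of S100g. Summed over the list, markers reached 18029 FPKM in KO and 5013 FPKM in WT. The part of an enterocyte share in the S100g difference was not tested. Stem cell markers had a median of -0.39, with 0 of 10 higher and 2 of 10 lower, namely Cd44 (28.8 FPKM in KO, 85.9 FPKM in WT, log2 ratio -1.54) and Sox9 (-1.14). Slc12a2, the other abundant marker, was at -0.17. With the TMM factor Sox9 was at -0.93, leaving 1 of 10 lower, and 6 of 10 stem cell markers were below 0, where 8 of 10 were as deposited. Of all measured genes 47.2% were below 0 with the TMM factor and 69.6% as deposited, so counts below 0 lay near these shares. The 2-fold calls lay above theirs, on few genes. At the deposited levels 2 of 10 stem cell markers were 2-fold lower, beside 2.18% of all measured genes. After TMM scaling 1 of 10 was, beside 1.42%.

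**Figure D3:**
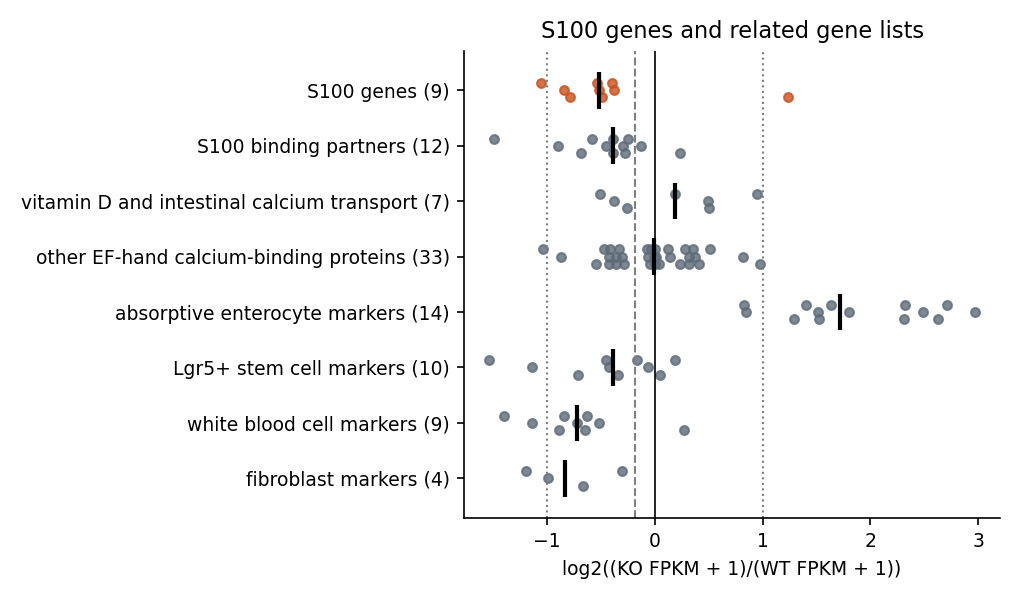
Log2 ratio of each measured gene (points) and the median (bar) for the S100 genes and 7 gene lists, with the number of measured genes in brackets; dashed, the median of all genes, and dotted, 2-fold. The S100 points lie left of 0 except S100g, which falls within the range of the enterocyte markers, from 0.83 to 2.98. Of the points shown, 3 of 9 white blood cell and 2 of 4 fibroblast markers passed the minimum through WT alone.

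Calcium absorption joins entry at the brush border, transport by calbindin and exit at the basal side, under the vitamin D receptor. Of 14 genes on that list 12 were listed and 7 measured, with 0 higher, 0 lower and a median of 0.19. The highest was Vdr, the vitamin D receptor gene, at 88.8 FPKM in KO and 45.7 FPKM in WT (log2 ratio 0.94), just under 2-fold. The lowest was Cldn2, a claudin that forms cation pores, at 193 FPKM in KO and 275 FPKM in WT (-0.51). Atp2b1, the plasma membrane calcium pump, was at 73.7 FPKM in KO and 64.5 FPKM in WT (0.19). Trpv6, the entry channel, was near 0, at 0.03 FPKM in KO and 0.02 FPKM in WT. Calb1, the larger calbindin of the kidney and brain, was at 0.02 FPKM in KO and listed at 0 in WT. With the TMM factor Vdr was past 2-fold as well, at 1.17, and the median of the list was 0.42.

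Genes of S100 binding partners mostly lay on the lower side in KO. Of 19 listed partners 12 were measured, with 0 higher, 1 lower and a median of -0.39, and 11 of the 12 were below 0, where 69.6% of all measured genes were. With the TMM factor 10 of the 12 were below 0, where 47.2% of all measured genes were. Anxa1, the annexin bound by S100a11, was the partner past 2-fold, at 15.1 FPKM in KO and 44.2 FPKM in WT (log2 ratio -1.49). The highest was Myh14, a non-muscle myosin heavy chain, at 130.0 FPKM in KO and 111 FPKM in WT (0.23). Cacybp, the partner of S100a6, was at 25.6 FPKM in KO and 33.7 FPKM in WT (-0.39), and Myh9, the partner of S100a4, at 106 FPKM in KO and 145 FPKM in WT (-0.45). Ager, a cell-surface receptor of several S100 proteins, was at 0.43 FPKM in KO and 0.19 FPKM in WT, below the minimum.

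Other EF-hand proteins, such as calmodulins, calpains and actinins, were spread on both sides of 0. Of 37 genes 33 were measured, with 0 higher, 1 lower, a median of -0.01, and 18 below 0 against 15 above. Over all measured genes the median was -0.18 and 69.6% were below 0, so the list lay somewhat above that general shift. Calb2, or calretinin, was the gene past 2-fold, at 0.45 FPKM in KO and 1.97 FPKM in WT (-1.03), a low level, measured through WT alone, at which the pseudocount matters. The highest was Chp2, a partner of sodium-proton exchangers, at 113 FPKM in KO and 57.0 FPKM in WT (0.97). With the TMM factor Chp2 (1.20) and Pls1, a microvillus bundling protein (1.05), were 2-fold higher and 0 genes lower, and the median was 0.20. In that setting 12 of the 33 were below 0, where 47.2% of all measured genes were.

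**Figure D4:**
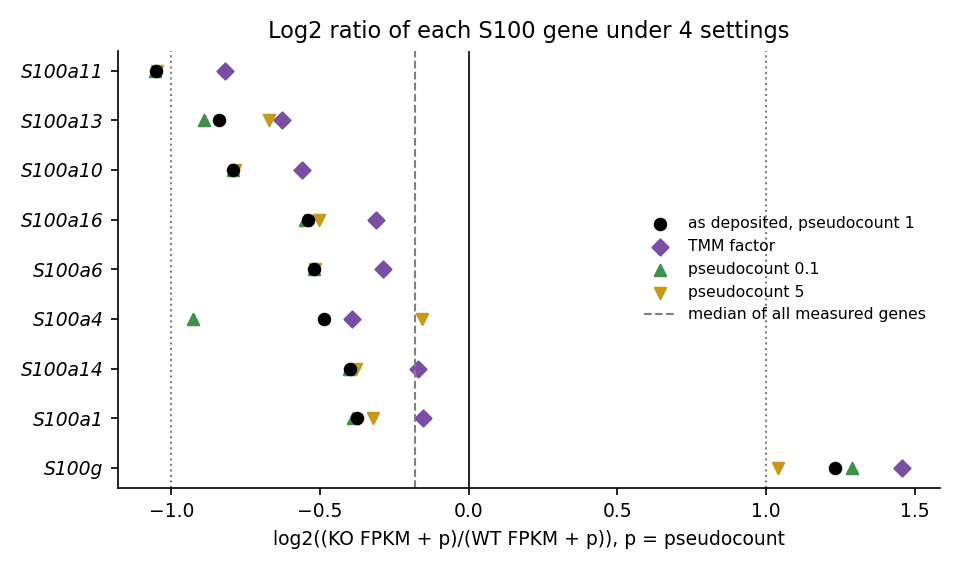
Log2 ratio (KO over WT) of each S100 gene as deposited with a pseudocount of 1, with the TMM factor, and with pseudocounts of 0.1 and 5; dotted lines mark 2-fold and the dashed line the median of all genes as deposited, -0.18. The 8 members other than S100g stay left of 0 under all 4 settings, while S100a11 lies past the 2-fold line except with the TMM factor, and S100g stays right of it.

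The 8 members other than S100g lie in the cluster on chromosome 3, in the order S100a1, S100a13, S100a14, S100a16, S100a4, S100a6, then a long stretch of barrier genes, then S100a11 and S100a10. RefSeq places 101 genes between the first and the last S100 gene of the cluster, of which 34 were listed in the files and 15 measured. The 7 measured genes that are not S100 genes all belong to the small proline-rich Sprr family, which encodes cross-linked envelope proteins, and had a median log2 ratio of 0.59. Of these, 4 were above 0 and 3 below. Sprr2a3 was the highest, at 10307 FPKM in KO and 5782 FPKM in WT (0.83). Sprr2f was the lowest and the only one past 2-fold, at 3.71 FPKM in KO and 21.9 FPKM in WT (-2.28). With the TMM factor Sprr2a2 and Sprr2a3 were also past 2-fold, at 1.06 and 1.07. Some Sprr2 genes are near-identical copies. How reads that match several of them were divided is not known here, so single values may be uncertain. The 10 measured genes before the cluster, looked at after the members' values were seen, had a median of -0.33 with 9 below 0, and the 10 after it a median of -0.10 with 6 below 0. Over all measured genes the median was -0.18, with 69.6% below 0.

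**Figure D5:**
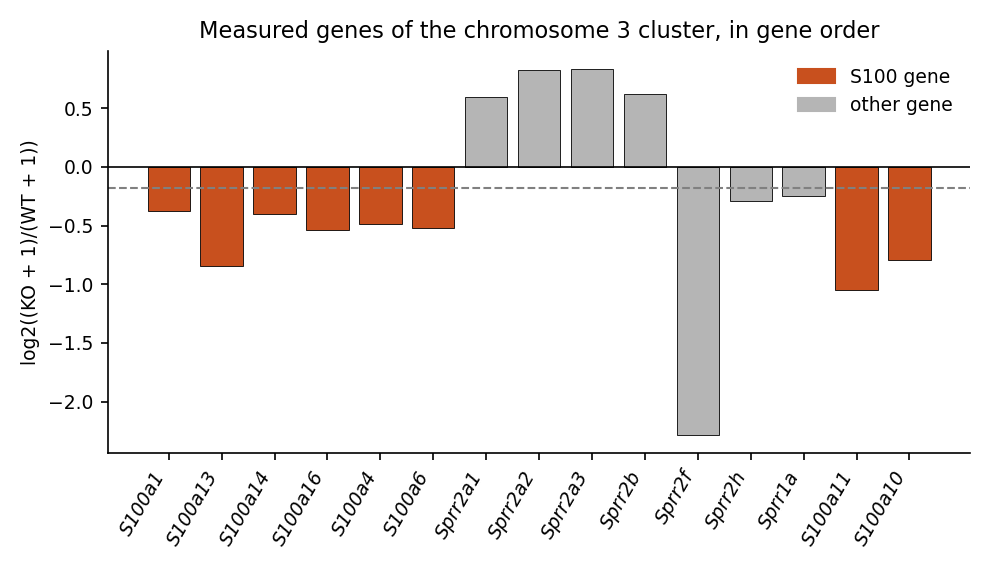
Log2 ratio of the 15 measured genes of the chromosome 3 cluster in their gene order, not to scale along the chromosome, with S100 genes in orange and other genes in grey; the dashed line is the median of all genes. The 8 S100 bars all point down, from -0.38 to -1.05, while 4 of the 7 Sprr bars between them point up.

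There were 8 promoter windows for 7 of the members, without any for S100a10 and S100a14. The windows are not all separate promoters, since those of S100a1 and S100a13 share 204 bases and S100a16 has windows for different starts. Both strands were searched for the STAT6 palindrome, whose arms stand 4 bases apart, for TTCNNNGAA, the spacing of other STAT proteins, and for the AP-1 and TATA box letters given with S100a11 and S100g. The STAT6 motif was found in 0 of the 8 windows and in 6.95% of 32851 promoter windows of the same length, and the other STAT motif in 0 of 8 and in 8.30%. The AP-1 letters TGANTCA were found in 2 of 8, those of S100a11 and of 1 start of S100a16, and in 7.81% of all windows. The S100a16 match read TGAATCA, and both S100a11 matches read TGAGTCA. The TATA box letters were found in 2 of 8 and in 13.6% of all windows. They began at position -31 in the S100a4 window and at the annotated start in the S100g window. A match describes letters in the window and is not evidence of a bound site.

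The files list 8 more genes of the family, and 0 of them reached 1 FPKM in either library. S100a8 and S100a9, the paired calprotectin genes of neutrophils and inflamed epithelium, were near or at 0. S100a8 was at 0.14 FPKM in both, and S100a9 was at 0.50 FPKM in KO and listed at 0 in WT. S100b, a glial gene, was at 0.12 FPKM in KO and 0.55 FPKM in WT, about 3.51 reads and 15.9 reads. S100a5 was at 0.62 FPKM in KO and 0.76 FPKM in WT, and S100a3 at 0.37 FPKM in KO and 0.15 FPKM in WT. S100a7a was at 0.14 FPKM in both, S100z was at 0.19 FPKM in KO and listed at 0 in WT, and S100a2 was listed at 0 in both. White blood cell markers summed to 21.6 FPKM in KO and 48.3 FPKM in WT. Of 9 measured genes, 3 of them measured through WT alone, 2 were lower and 0 higher, but 6 were lower with a pseudocount of 0.1 and 1 with a pseudocount of 5. Those past 2-fold were Cd68 (6.08 FPKM in KO, 17.7 FPKM in WT) and Coro1a (1.12 FPKM in KO, 3.67 FPKM in WT), and Lyz2 was at 6.32 FPKM in KO and 12.6 FPKM in WT. The part of such cells in the S100 differences was not tested. Of the S100-fused barrier proteins such as trichohyalin, 2 of 7 were listed and 0 measured, with Tchh at 0.41 FPKM in KO and 0.69 FPKM in WT.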

How the data were processed

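RNA from 1 Stat6 KO and 1 WT culture was sequenced as single-end reads of 50 bases, per the labels' protocols. The authors deposited FPKM per gene, rounded to 2 decimals, per the file headers. HISAT, Bowtie2, RSEM and the mm9 build are named, per the submitters' processing notes; no source used here gives their versions, roles, annotation or strand setting. Tables were joined by Entrez number, and 9 of 9 member numbers matched the RefSeq table (GRCm38.p6), used for names, gene order and promoters. Log2 ratios used a pseudocount of 1, and called means past 2-fold.

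The tables hold no counts. Steps in the FPKM of short RNA genes gave a smallest fitting depth of 20200000 reads in KO and 20000000 reads in WT, with 36 bases taken off each length; whole multiples of these depths would also fit. Reads per gene used the longest coding transcript in GENCODE vM21. Intervals cover counting error only.

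Members and gene lists were chosen with earlier results of these data known. Named by rule were all members and family genes, the genes past 2-fold, the highest and the lowest of each pathway list, and the genes past 2-fold and the 2 most abundant of each marker list; other list genes were named for their roles after values were seen. A gene that the rule selects is not reported here. No nearest-pattern genes are named, since a pattern over 2 libraries is 1 ratio. Protein sequences were not used here. Alternatives were pseudocounts of 0.1 and 5, a TMM factor (trims of 30% and 5%), the median of all genes set to 0, totals without abundant or enterocyte genes, minimum levels of 0 and 5 FPKM, and thresholds of 1.5-fold and 4-fold. The calculations were tested on simulated data (Python 3.11.15, pandas 2.3.3, NumPy 2.4.6, SciPy 1.17.1).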

Additional observations from a re-analysis of the deposited data

How the results depend on the processing

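The log2 ratios of the 9 members kept their sign under the 6 scalings and pseudocounts tried. S100a4, the least abundant, ranged most, from -0.93 with a pseudocount of 0.1 to -0.16 with a pseudocount of 5, and S100g ranged from 1.04 to 1.46. S100a11 ended under 2-fold with the TMM factor (-0.82), with the median of all genes set to 0 (-0.87) and with a total without enterocyte markers (-0.99), so the number of members 2-fold lower was 0 in those 3 settings and 1 in the others at that threshold. At 1.5-fold 3 members were lower, and at 4-fold 0 were lower and 0 higher. Calls over all genes moved as well, with 374 higher and 604 lower at a pseudocount of 0.1, 144 and 63 at a pseudocount of 5, and 440 and 171 with the TMM factor, beside 295 and 263 as deposited. For the gene lists, 251 alternative values were graded the same as the reported ones and 48 as moved, by a loose rule. Values graded the same could still differ in size. The white blood cell median was -0.73 as deposited, -1.13 with a pseudocount of 0.1 and -0.28 with 5. The EF-hand median, -0.01 as deposited, changed sign to 0.20 with the TMM factor. The medians past 2-fold, of enterocyte and squamous markers, kept their sign, but the squamous median went from -1.36 to -0.19 without a minimum level. The upper end of the S100a4 counting interval was 0.51 at the smallest fitting depth and -0.17 at the average reads in the labels, a setting chosen after seeing the data. Levels of a few reads, as for S100a4, S100a8, S100a9 and S100b, are limited by depth. No paired analysis was possible because each genotype has 1 library. The cause of these shifts was not tested.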

Other observations

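Markers of cells that the cultures were not labelled to hold gave low values. Endothelial markers had 7 of 8 genes measured, 4 of them through WT alone, and a sum of 9.63 FPKM in KO and 22.2 FPKM in WT. Cldn5, one of those 4, was the gene past 2-fold, at 0.50 FPKM in KO and 3.16 FPKM in WT, and Egfl7 (3.58 FPKM in KO, 7.46 FPKM in WT) and Pecam1 (1.99 FPKM in KO, 4.24 FPKM in WT) were the most abundant. Glial markers had 2 of 6 measured, both through WT alone, and 0 past 2-fold. Foxd3 was at 0.59 FPKM in KO and 1.23 FPKM in WT, and Sox10 at 0.42 FPKM in KO and 1.28 FPKM in WT.

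Markers of squamous epithelium, a tissue in which several S100 genes are abundant, had 3 of 9 measured, with 2 lower and 0 higher. Of all measured genes 2.18% were 2-fold lower and 2.44% higher. Dsg3, a desmosomal cadherin measured through WT alone, was at 0.74 FPKM in KO and 11.1 FPKM in WT, and the keratin Krt6a at 1.04 FPKM in KO and 4.25 FPKM in WT. Krt5 was at 3.52 FPKM in KO and 4.75 FPKM in WT, while Krt4 and Krt13 were listed at 0 in both libraries and Krt14 was at 0.13 FPKM in KO and 0.29 FPKM in WT. Their relation to the S100 levels was not tested.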
